A study of Mus musculus with 6 samples.

Results

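The genes described here are 8 mouse genes of the red blood cell lineage, out of 54532 genes in the deposited files: the transcription factor genes Gata1, Klf1 and Tal1, the erythropoietin receptor gene Epor, and the membrane protein genes Slc4a1, Epb42, Rhag and Ermap. They were chosen by name, with earlier results of these data known, and all 8 were found by Ensembl identifier. The study sequenced RNA of sorted cells in 6 libraries, with 1 library for each condition. Macrophages were sorted from healthy (WT) and leukemic (MA9) mice, each with or without iron dextran, which makes 4 libraries. Leukemia cells of MA9 mice with or without iron dextran make the other 2. WT mice were C57BL/6 mice without leukemia. MA9 mice were C57BL/6 mice that had received a transplant of acute myeloid leukemia cells, which had been made by infecting c-kit+ BM cells with a retrovirus that carries the MLL-AF9 fusion gene and GFP. FE marks the mice that were given repeated intraperitoneal injections of iron dextran, and control mice, healthy or leukemic, were given PBS.

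The study gated BM macrophages as GFP- F4/80+ cells with low Gr-1, intermediate CD115 and low to intermediate side scatter. This gate names no erythroid surface antigen. The labels name the spleen for the macrophage libraries and the study's methods name the BM. Whether this gate was used for these libraries is therefore not settled. Leukemia cells came from the BM. Cell type and tissue therefore cannot be told apart wherever leukemia cells are set against macrophages. The number of mice behind each library was not given in the sources used here. In such bulk RNA, fewer cells of a type and less RNA per cell cannot be told apart.

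GATA1 and TAL1 bind erythroid enhancers and promoters together in a complex with LMO2 and LDB1, and KLF1 binds CACCC boxes of globin and other erythroid genes. Erythropoietin acts through EPOR and JAK2 to keep erythroid progenitors alive. The membrane proteins come later in differentiation: band 3, the product of Slc4a1, exchanges chloride and bicarbonate and anchors the membrane to its skeleton, where the product of Epb42 binds it. The product of Rhag is the glycoprotein that carries Rh antigens to the surface, and that of Ermap is an immunoglobulin superfamily protein of the erythroid membrane. Macrophages in the spleen and the BM take up aged red cells, and those at the centre of erythroblastic islands hold erythroid cells on their surface. Gata1 and Tal1 are also used by megakaryocytes, mast cells and basophils.

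The promoter sequences of the genes are shown first because the transcription factors among them recognise short words in the DNA of the others. RefSeq promoters (GRCm38.p6, 250 bases before the RefSeq transcript start) were found for 7 of the 8 genes, and none was matched for Slc4a1. Tal1 had 2 such windows, which makes 8 windows. RefSeq starts can differ from the ends of the GENCODE genes given below. The starts used for Gata1, Klf1, Ermap, Epb42, Rhag and the second window of Tal1 lie inside their GENCODE genes. The words that GATA factors recognise, AGATAA or AGATAG with an A at the start and TGATAA or TGATAG with a T, were searched on both strands. They were present in 6 of the 8 windows, from 6 genes, against 26.5% of 32851 promoters. The second window of Tal1 and that of Gata1 held none. In the lines below the capitals mark the word as it reads along the strand of the gene, where TTATCA and TTATCT are the reverse complements of TGATAA and AGATAA.
Klf1, chr8:84901882-84901927, + strand, 80 bases before the start: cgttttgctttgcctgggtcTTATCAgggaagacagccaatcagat
Tal1, chr4:115056201-115056246, + strand, 205 bases before the start: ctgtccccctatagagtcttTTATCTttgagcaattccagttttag
Epor, chr9:21963605-21963650, − strand, 54 bases before the start: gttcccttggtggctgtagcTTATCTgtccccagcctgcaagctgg
Ermap, chr4:119190037-119190082, − strand, 67 bases before the start: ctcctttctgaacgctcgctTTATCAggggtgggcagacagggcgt
Epb42, chr2:121037078-121037123, − strand, 226 bases before the start: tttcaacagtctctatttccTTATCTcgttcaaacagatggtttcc
Rhag, chr17:40811098-40811125, + strand, 31 bases before the start: cagagagaagtcctctgctcTTATCAac

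A CACCC word was found for 2 of the 7 genes searched, Gata1 and Epor. Of all promoters, 14.9% held one of CCACACCC, CCGCACCC, CCCCACCC and CCTCACCC on either strand. The pair is shown because these are the words that KLF1 recognises.
Gata1, chrX:7967938-7967985, − strand, 55 bases before the start: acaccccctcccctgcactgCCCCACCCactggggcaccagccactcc
Epor, chr9:21963673-21963720, − strand, 124 bases before the start: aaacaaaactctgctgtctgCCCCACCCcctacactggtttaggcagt

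The E-box CANNTG, the word of TAL1 and its partners, was in 4 of the 8 windows and in 66.2% of all promoters. An E-box followed 7 to 9 bases later by GATA was in Epb42 and in 1.42% of all promoters. These matches are descriptions of letters in a window, and binding was not measured.

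The deposited values are FPKM, which count fragments or reads per kilobase of exon and relative to the depth of the library, so that levels can be compared between genes. Reads were recovered from the FPKM and the exon lengths, and the depth was between 16085346 and 19518360 reads per library. All intervals below are 95% intervals from these reads; they cover counting error only, and no value has a replicate check. A gene was counted as higher or lower between 2 libraries when log2(FPKM + 1), after TMM scaling (trimmed mean of M values), differed by a fold of 2 or more and when 1 or both of them held 10 or more reads. Adding 1 understates the change of genes with low FPKM, so the plain ratio of scaled FPKM is given too. "Rose" and "fell" are used only for genes past that fold.

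Each of the 8 genes was highest in MA9 macrophages and second in MA9/FE macrophages, although for Epb42 the intervals of these 2 libraries overlapped. In macrophages of healthy mice their summed FPKM was 19.4 without iron and 17.4 with iron. In macrophages of leukemic mice it was 94.4 without iron and 56.4 with iron, and leukemia cells had 5.46 without iron and 3.70 with iron. These sums rest on 1146, 966, 5142, 2846, 385 and 228 reads in the same order, so the levels of single genes in leukemia cells are the least precise.

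**Figure D1:**
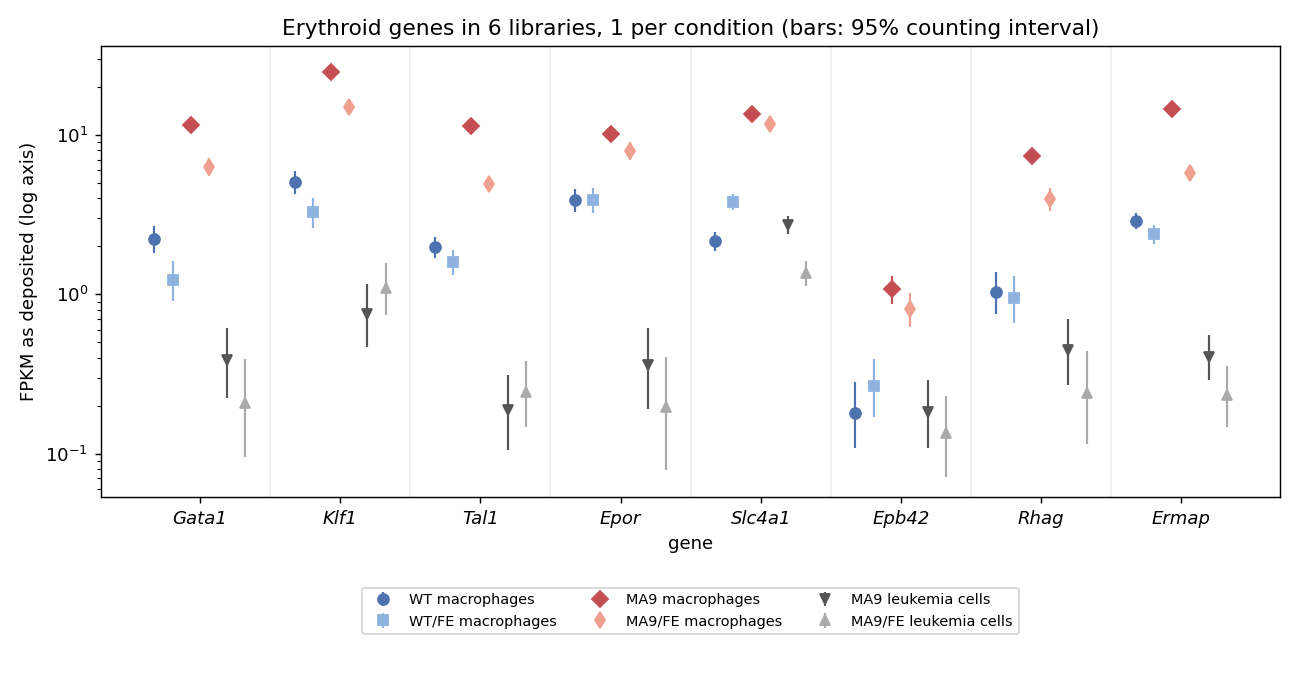
FPKM of the 8 erythroid genes on a log axis in the 6 libraries, 1 per condition, with bars for the 95% counting interval. Each gene is highest in MA9 macrophages, where Klf1 reaches 24.9 and Epb42 1.07, and 6 of the 8 are under 1 in both leukemia cell libraries.

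Among the transcription factor genes, Klf1 (ENSMUSG00000054191, chr8:84901928-84905291, + strand) was the most abundant in every library. In macrophages its FPKM was 5.06 (WT), 3.27 (WT/FE), 24.9 (MA9) and 15.0 (MA9/FE), and leukemia cells had 0.756 (MA9) and 1.10 (MA9/FE). Its counting intervals were apart between each pair of neighbours in this order except the 2 leukemia cell libraries.

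Gata1 (ENSMUSG00000031162, chrX:7959260-7978071, − strand) encodes the factor that drives erythroid commitment together with TAL1. In macrophages its FPKM was 2.21 (WT), 1.22 (WT/FE), 11.5 (MA9) and 6.30 (MA9/FE), and leukemia cells had 0.384 (MA9) and 0.207 (MA9/FE). The order was that of Klf1 except in the leukemia cells, where the intervals of the 2 libraries overlapped, with 17 and 9 reads.

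Tal1 (ENSMUSG00000028717, chr4:115056426-115071755, + strand), which encodes the helix-loop-helix factor that binds E-boxes, was measured in macrophages at an FPKM equal to 1.98 (WT), 1.59 (WT/FE), 11.4 (MA9) and 4.93 (MA9/FE). In leukemia cells it was 0.189 without iron and 0.243 with iron. MA9 macrophages stood above MA9/FE macrophages, which stood above WT and WT/FE macrophages, and the last pair overlapped.

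Epor (ENSMUSG00000006235, chr9:21958897-21963506, − strand) varied least among the 4 macrophage libraries. In macrophages its FPKM was 3.89 (WT), 3.89 (WT/FE), 10.1 (MA9) and 7.94 (MA9/FE), and leukemia cells had 0.360 (MA9) and 0.197 (MA9/FE). The WT and WT/FE macrophages did not differ beyond counting error, and the intervals of MA9 and MA9/FE macrophages were apart.

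Slc4a1 (ENSMUSG00000006574, chr11:102348824-102366203, − strand) followed another order than the transcription factor genes. In macrophages its FPKM was 2.15 (WT), 3.80 (WT/FE), 13.5 (MA9) and 11.7 (MA9/FE), and leukemia cells had 2.74 (MA9) and 1.35 (MA9/FE). WT/FE macrophages stood above WT macrophages, and MA9 leukemia cells overlapped with WT macrophages. In leukemia cells it was the most abundant of the 8 genes, with 243 and 118 reads.

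Epb42 (ENSMUSG00000023216, chr2:121017891-121037072, − strand) was the lowest of the 8 genes in every library. In macrophages its FPKM was 0.180 (WT), 0.264 (WT/FE), 1.07 (MA9) and 0.803 (MA9/FE), and leukemia cells had 0.183 (MA9) and 0.134 (MA9/FE). Only the step from MA9/FE to WT/FE macrophages was larger than the counting error between neighbours in its order.

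Rhag (ENSMUSG00000023926, chr17:40811126-40840754, + strand) was measured in macrophages at an FPKM equal to 1.03 (WT), 0.942 (WT/FE), 7.37 (MA9) and 3.93 (MA9/FE), and 0.447 (MA9) and 0.239 (MA9/FE) in leukemia cells. Ermap (ENSMUSG00000028644, chr4:119175457-119190011, − strand) had 2.89 (WT), 2.38 (WT/FE), 14.6 (MA9) and 5.79 (MA9/FE) in macrophages, and 0.405 (MA9) and 0.233 (MA9/FE) in leukemia cells. For both genes the WT and WT/FE macrophages overlapped, and MA9 and MA9/FE macrophages lay apart from each other and from the rest. None of the 8 genes overlaps another annotated gene in GENCODE M21 (GRCm38).

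The comparison of MA9 with WT macrophages asks how macrophages of leukemic mice differ from those of healthy mice. The erythroid genes rose together: 7 of 8 were higher in MA9 macrophages by the fold of at least 2, against 3.78% of the 16910 genes tested. Their median log2 fold change was 2.03, and that of all genes tested was close to 0. The ratio of scaled FPKM was 7.22 for Rhag (95% counting interval 5.30 to 10.1), 6.34 for Slc4a1 (5.46 to 7.40), 5.84 for Tal1 (4.94 to 6.92) and 5.26 for Gata1 (4.25 to 6.57). For Ermap it was 5.08 (4.48 to 5.78), for Klf1 4.97 (4.16 to 5.98) and for Epor 2.62 (2.15 to 3.19). Epor, the receptor gene, had the smallest ratio of the 8. Epb42 had a ratio of 6.04 (3.67 to 10.5) and a log2 fold change of 0.82, under the fold because its FPKM is near 1 or below.

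Between MA9/FE and WT/FE macrophages, 6 of the 8 genes rose, against 2.93% of 16554 genes tested. The ratios ran from 2.07 for Epor to 5.24 for Gata1 (3.85 to 7.25), and Klf1 followed with 4.67 (3.68 to 5.99). Epor and Epb42 did not reach the fold, with log2 fold changes of 0.89 and 0.52, and all 8 ratios had counting intervals above 1. The membrane genes had ratios of 4.24 (Rhag), 3.12 (Slc4a1), 3.09 (Epb42) and 2.47 (Ermap). Scaling to the summed FPKM in place of TMM left 3 of the 8 genes past the fold here, with the median log2 fold change of all genes tested then at -0.34.

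**Figure D2:**
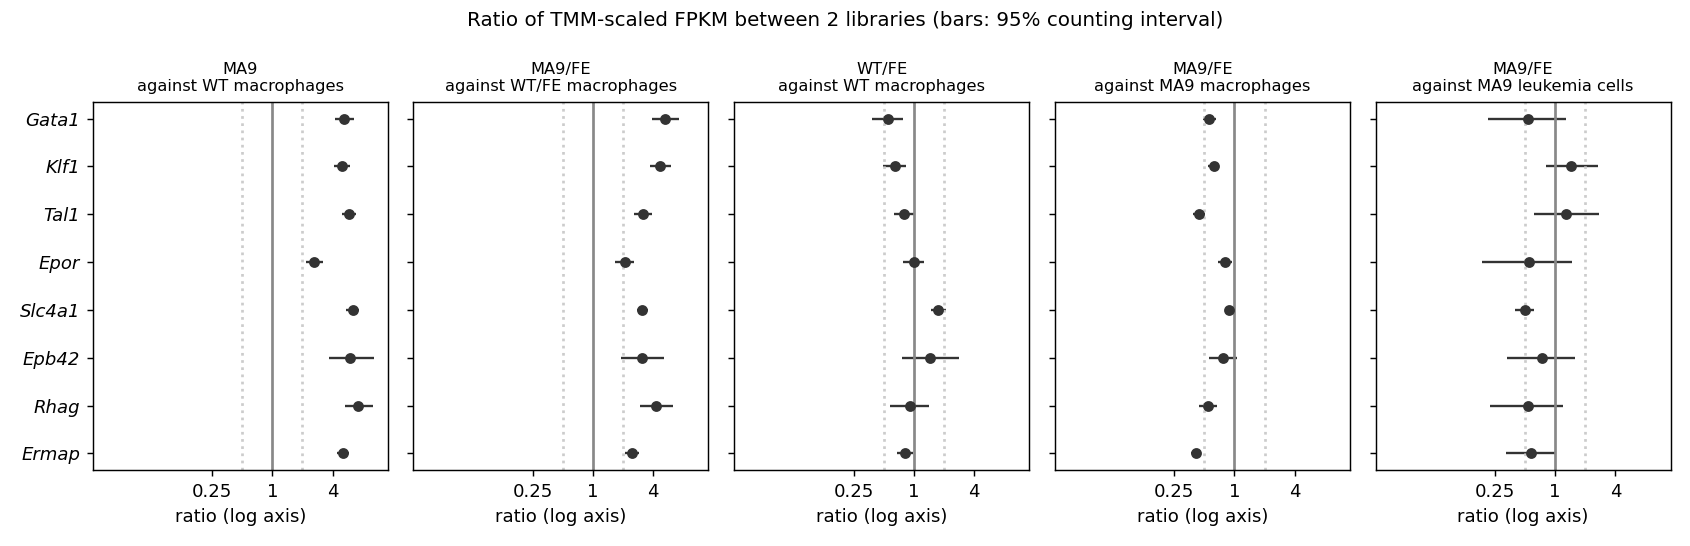
Ratio of TMM-scaled FPKM of each erythroid gene on a log axis in 5 comparisons of 2 libraries, with bars for the 95% counting interval. The solid line marks a ratio of 1 and the dotted lines a fold of 2. In both comparisons of leukemic with healthy mice all 8 intervals lie above 1, and with iron Slc4a1 lies at 1.76 in WT and at 0.886 in MA9 macrophages.

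In the additive limma fit over the 4 macrophage libraries, with iron and leukemia as terms, 7 of the 8 genes passed the threshold for leukemia at a Benjamini-Hochberg adjusted p of 0.05, against 2.09% of 16253 genes that were higher. The log2 change was 2.02 ± 0.17 (SE) for Klf1 (limma, adjusted p = 0.0084) and 1.86 ± 0.18 for Gata1 (limma, adjusted p = 0.0098). Slc4a1 had 1.82 ± 0.23 (limma, adjusted p = 0.022), Rhag 1.71 ± 0.22 (0.022), Tal1 1.65 ± 0.24 (0.031), Ermap 1.52 ± 0.26 (0.042) and Epor 1.05 ± 0.18 (0.044). Epb42 did not pass (0.67 ± 0.18, limma, adjusted p = 0.15). The residual of this fit is the difference between the 2 iron responses and not a spread between replicates. Without a minimum of reads 0 of 27356 genes passed this limma test. An unadjusted p under 0.05 was then found for 8 of the 8 genes and for 2879 of all 27356 genes.

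Iron dextran in leukemic mice went with lower levels of most of these genes in macrophages. Tal1 and Ermap fell, against 1.26% of 16496 genes tested that were lower. The ratio of MA9/FE to MA9 macrophages was 0.408 for Ermap (0.367 to 0.452) and 0.442 for Tal1 (0.389 to 0.501). The other ratios were 0.548 for Rhag (0.446 to 0.669), 0.561 for Gata1 (0.479 to 0.656), 0.619 for Klf1 (0.543 to 0.704), 0.807 for Epor (0.684 to 0.953) and 0.886 for Slc4a1 (0.811 to 0.968). These 5 had intervals below 1 without reaching the fold, and that of Epb42 covered 1 (0.766, 0.556 to 1.05). The membrane genes were spread over the whole range, with Ermap the lowest ratio of the 8 and Slc4a1 the highest. Scaling to the summed FPKM put 5 of the 8 genes past the fold, with the median log2 fold change of all genes tested then at -0.31.

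In macrophages of healthy mice none of the 8 genes passed the fold with iron, where 1.27% of 16737 genes did in either direction. Gata1 (0.551, 0.385 to 0.779), Klf1 (0.643, 0.487 to 0.846) and Ermap (0.820, 0.685 to 0.981) had ratios with intervals below 1. Slc4a1 had a ratio of 1.76 (1.47 to 2.11), the only one of the 8 with an interval above 1. Tal1 (0.801), Epor (0.996), Epb42 (1.46) and Rhag (0.911) had intervals that covered 1, and the sign for Epor and Rhag changed with the scaling.

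The iron term of the additive limma fit called 0 of the 8 genes, against 0.0123% of genes in all. At an unadjusted p under 0.05 it had 618 genes, among them Gata1, Klf1, Tal1 and Ermap. The lowest adjusted p among the 8 was that of Gata1, which fell short of the threshold with a log2 change of -0.65 ± 0.18 (limma, adjusted p = 0.79). A limma fit of iron over the 3 pairs of libraries with and without iron called 0 genes (0% of 17132, with 602 at an unadjusted p under 0.05), and Gata1 alone of the 8 had an unadjusted p under 0.05 in it.

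**Figure D3:**
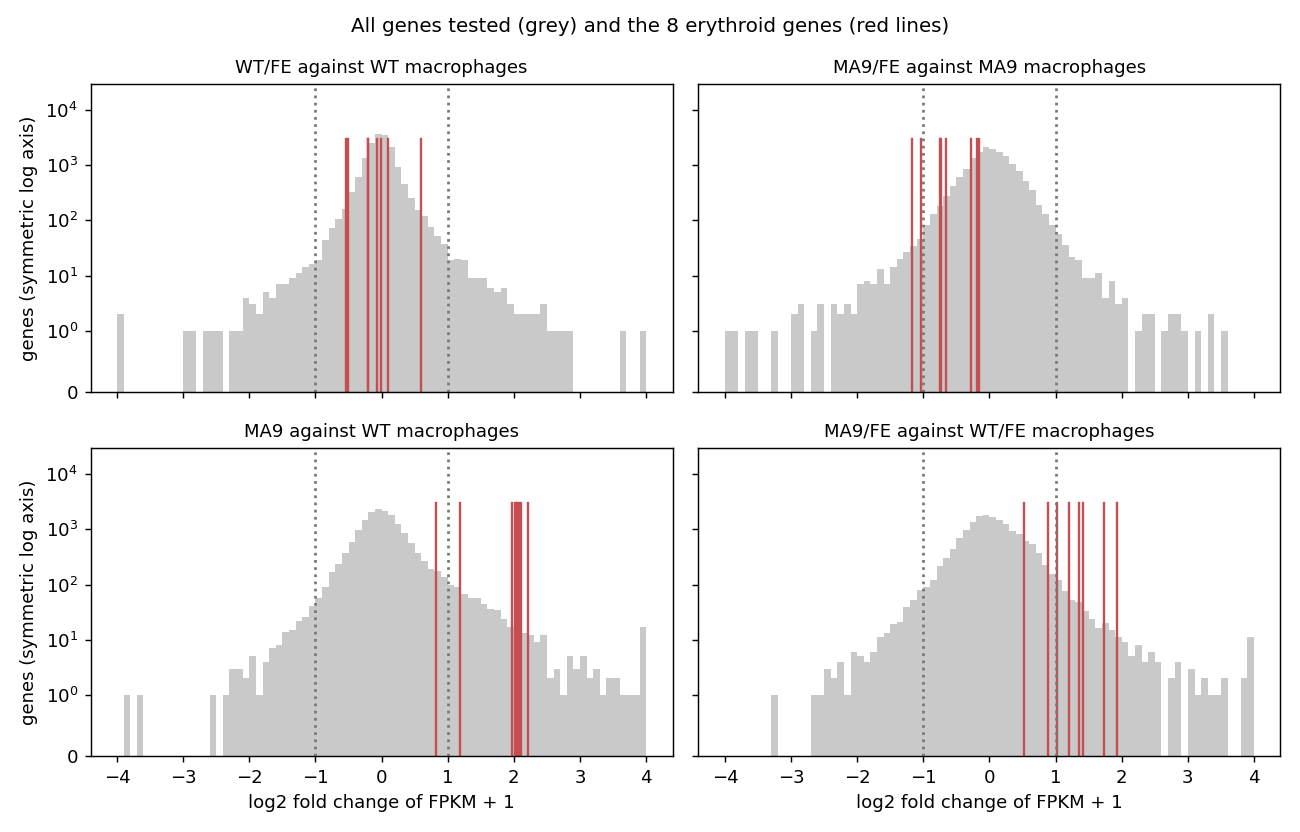
Number of genes (grey, symmetric log axis) by log2 fold change of FPKM + 1 in 4 comparisons of macrophage libraries, with values beyond 4 in either direction placed in the outermost bins, and the 8 erythroid genes as red lines. Dotted lines mark the fold of 2. The erythroid genes lie right of it for 7 of 8 genes in MA9 against WT macrophages, and 2 of 8 lie left of it in MA9/FE against MA9 macrophages.

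The balance between the erythroid genes within a library, which no scaling between libraries can change, also moved. The FPKM ratio of Slc4a1 to Ermap was 0.743 (0.619 to 0.890) in WT and 0.927 (0.855 to 1.005) in MA9 macrophages. With iron it was 1.59 (1.33 to 1.91) in WT/FE and 2.01 (1.80 to 2.25) in MA9/FE macrophages. The intervals of the 2 libraries with iron lay above those of the 2 without. The exons of these genes are of similar length, 4891 bases for Slc4a1 and 5297 bases for Ermap.

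The ratio of Slc4a1 to Tal1 showed the same order, with 1.09 (0.882 to 1.34) in WT and 1.18 (1.08 to 1.29) in MA9 macrophages against 2.39 (1.92 to 2.98) and 2.37 (2.09 to 2.68) with iron. Slc4a1 to Gata1 was 0.973 and 1.17 without iron and 3.11 and 1.85 with iron in WT and MA9 mice. Slc4a1 to Klf1 was 0.425 and 0.542 without iron and 1.16 and 0.775 with iron. In each of these 4 ratios, which all share Slc4a1, the macrophage libraries with iron were above those without. Slc4a1 to Epor did not keep this order. In WT/FE macrophages Slc4a1 was below Epor (FPKM 3.80 against 3.89), and in MA9 macrophages it was above (13.5 against 10.1). In leukemia cells the 4 ratios given above were instead lower with iron. Slc4a1 to Klf1 was 3.62 (2.32 to 5.95) without and 1.23 (0.818 to 1.90) with iron there. The intervals overlapped for the other 3, which were 14.5 and 5.56 for Tal1, 7.13 and 6.54 for Gata1, and 6.75 and 5.81 for Ermap.

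Klf1 to Gata1 was between 2.16 and 2.68 in the 4 macrophage libraries, with overlapping intervals, and 1.97 (0.989 to 3.97) and 5.31 (2.46 to 12.7) in leukemia cells without and with iron. Epb42 to Slc4a1, genes whose proteins bind each other, was between 0.0669 and 0.0995 in all 6 libraries, again with overlapping intervals, so that Epb42 went with Slc4a1 within the precision of its 13 to 99 reads. Other pairs moved: in macrophages Epor to Gata1 ran from 0.876 (0.760 to 1.01) in MA9 to 3.19 (2.28 to 4.51) in WT/FE mice, and Ermap to Gata1 from 0.919 (0.787 to 1.07) in MA9/FE to 1.95 (1.43 to 2.71) in WT/FE mice.

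**Figure D4:**
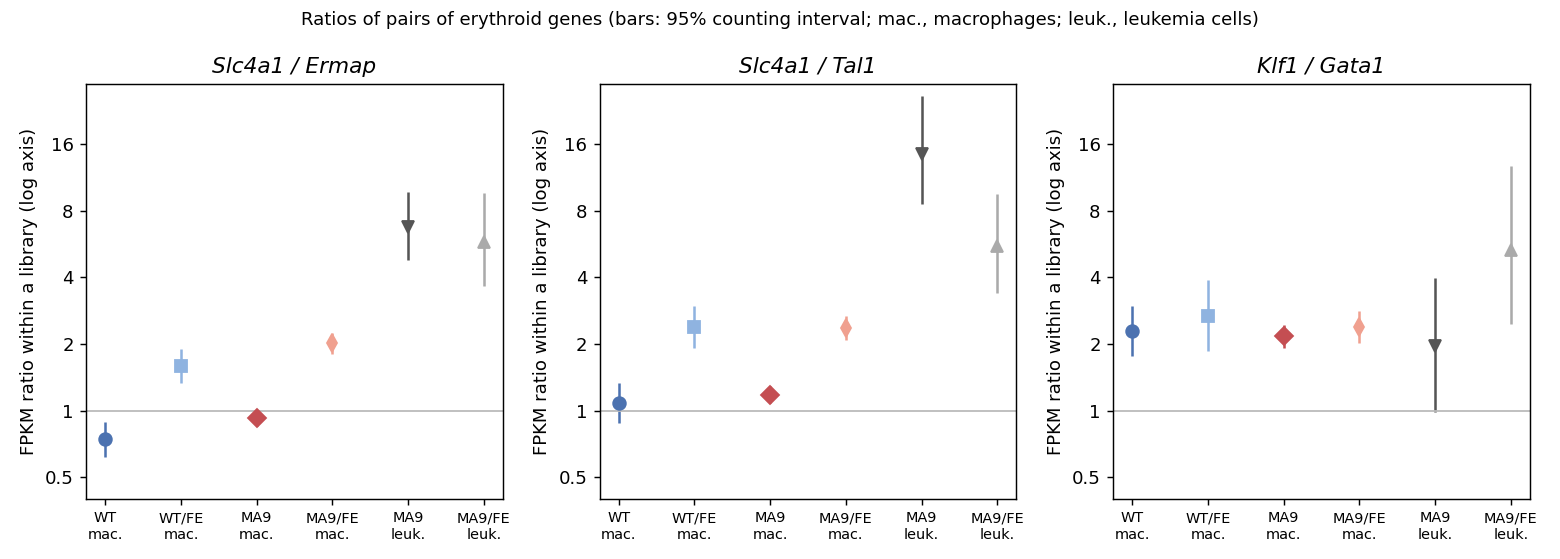
FPKM ratio of 3 pairs of erythroid genes within each of the 6 libraries on a log axis, with bars for the 95% counting interval. Slc4a1 relative to Ermap and to Tal1 is higher in the 2 macrophage libraries with iron than in the 2 without, and Klf1 relative to Gata1 overlaps in the 4 macrophage libraries.

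In leukemia cells, iron put none of the 8 genes past the fold, where 0.864% of 15396 genes passed in either direction. The ratio of Slc4a1 was 0.494 (0.393 to 0.618) and that of Ermap 0.573 (0.324 to 0.991). The intervals of the other 6 covered 1. Those genes rested on 7 to 30 reads per library, and changes inside their intervals, which ran from 0.185 (Epor) at the lowest to 2.72 (Tal1) at the highest, were not detectable at this depth.

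Leukemia cells had less of these genes than macrophages of the same group of mice: 7 of the 8 were lower in MA9 leukemia cells than in MA9 macrophages, against 12.7% of 17023 genes tested. With iron 7 of 8 were lower too, against 13.2% of 16821. Macrophages had between 5.04 times (Slc4a1) and 62.0 times (Tal1) the level of leukemia cells in MA9 mice, and between 6.10 times (Epb42) and 41.1 times (Epor) in MA9/FE mice. Slc4a1 and Epb42 had the smallest of these ratios in both.

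The other genes of the pathway were counted from lists that hold none of the 8 genes. Among 18 membrane and skeleton partners, 17 passed the minimum of reads in MA9 against WT macrophages and 8 rose, against 3.78% of all genes tested, with a median log2 fold change of 0.96. They include Sptb, Ank1 (ankyrin) and Add2 (adducin) of the membrane skeleton and the blood group genes Kel and Rhd, named here after their values were seen. Aqp1, the gene of a water channel of red cells, was measured in macrophages at an FPKM equal to 7.84 (WT), 5.46 (WT/FE), 42.05 (MA9) and 22.3 (MA9/FE). Add1, Gypc and Stom, the other abundant members, differed little in MA9 against WT, with FPKM of 24.4 against 26.4, 24.1 against 20.97 and 35.1 against 32.4. Between MA9/FE and MA9 macrophages 0 of the 17 passed the fold, and 15 had a log2 fold change below 0.

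Of 15 partners of GATA1, TAL1 and KLF1, 5 rose in MA9 against WT macrophages, where 3.78% of all genes tested did: Gata2, Gfi1b, Zfpm1, Nfe2 and Myb. Myb, which encodes a factor of immature progenitors, was at 5.64 in WT and 14.0 in MA9 macrophages and at 70.6 in MA9 leukemia cells. The genes of the complex that GATA1 and TAL1 enter, Lmo2 and Ldb1, were at 88.7 and 63.1 in WT and at 75.2 and 55.7 in MA9 macrophages, and Lyl1, a relative of Tal1, at 65.0 and 58.2. With iron in MA9 macrophages 0 of the 15 passed the fold.

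Of 16 genes of erythropoietin receptor signalling, Tfr2 and Podxl rose in MA9 against WT macrophages (3.78% of all genes tested) and fell with iron in MA9 macrophages (1.26%). Pim1, a kinase gene that STAT5 induces, was at 87.8 (WT), 73.5 (WT/FE), 146 (MA9) and 115 (MA9/FE) in macrophages. Lyn, Ptpn6 and Sh2b3, which macrophages and other white cells also use, were lower in MA9 than in WT macrophages without reaching the fold, at 80.0 against 98.2, 200 against 276 and 44.0 against 60.9.

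Of 17 hemoglobin and heme synthesis genes that were found, 6 rose in MA9 against WT macrophages, against 3.78% of all genes tested, and Hba-a1, Hba-a2 and Hbb-bs rose with iron in MA9 macrophages, against 1.19% of genes tested that were higher, whereas none of the 8 erythroid genes did. Hba-a1, an alpha globin gene, was at 32.6 (WT), 75.6 (WT/FE), 103 (MA9) and 210.2 (MA9/FE) in macrophages, and at 169 (MA9) and 62.1 (MA9/FE) in leukemia cells. Hbb-bs, a beta globin gene, was at 37.1, 90.8, 83.4 and 181 in the macrophages in the same order. The ratio of Hba-a1 to Gata1 was therefore 14.8 (WT), 61.9 (WT/FE), 8.99 (MA9) and 33.4 (MA9/FE) in macrophages. The log2 fold change of Hba-a1 with iron was 1.18 in WT and 1.05 in MA9 macrophages. In MA9 macrophages it was 0.58 under scaling to the summed FPKM and 0.88 with the exon length trend removed, under the fold. That of Hbb-bs there was 1.14, and 0.67 and 0.97 under these settings, also under the fold. Each of these settings left 1 gene of the list higher by the fold, Hba-a2. In leukemia cells 5 of the 17 genes fell with iron, against 66 of 15396 genes tested that were lower. No gene of the other pathway lists passed the fold there. Near-identical globin genes make the split of reads between single copies uncertain.

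Of 14 other late erythroid genes, Car1, Car2, Trim10, Hemgn and Tent5c rose in MA9 against WT macrophages (3.78% of all genes tested), and 0 passed the fold with iron in MA9 macrophages. Car1 and Car2, carbonic anhydrase genes, were at 44.0 and 16.5 in WT and at 174 and 68.4 in MA9 macrophages. In MA9/FE macrophages they were at 108 and 47.7. Prdx2 was at 41.8 (MA9) and 48.3 (MA9/FE), and Blvrb at 29.96 and 38.7. Between MA9/FE and WT/FE macrophages 4 membrane partners, 3 partners of the transcription factors, 6 hemoglobin and heme synthesis genes and 6 other late erythroid genes rose, and 0 of the signalling genes did, against 2.93% of all genes tested. Scaling to the summed FPKM left 3, 0, 0 and 3 genes of the first 4 lists.

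Markers of other cells moved alongside. In MA9 against WT macrophages 8 of 9 neutrophil markers, 5 of 7 myeloid progenitor markers, 7 of 7 basophil and mast cell markers and 3 of 8 megakaryocyte markers were higher by the fold. Of all 16910 genes tested, 3.78% were. Summed FPKM of the neutrophil list in macrophages was 3.68 (WT), 2.60 (WT/FE), 1741 (MA9) and 884 (MA9/FE), with Ly6g and Mmp8 listed at 0 in both WT libraries. The basophil and mast cell list, which shares Gata2 with the partners above, summed to 19.5, 15.6, 165 and 77.9 in the same order, and the megakaryocyte list to 8.83, 9.36, 23.0 and 16.6. The myeloid progenitor list summed to 74.6, 72.1, 217 and 133 in macrophages, and in leukemia cells to 4558 without iron and 3982 with iron. Each of these lists put MA9 macrophages above MA9/FE macrophages and both above the WT and WT/FE macrophages, as the erythroid genes did, but in leukemia cells the erythroid sum was below that of every macrophage library and the myeloid progenitor sum above.

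Macrophage markers did not follow the erythroid genes. Their sum in macrophages was 434 (WT), 771 (WT/FE), 426 (MA9) and 1021 (MA9/FE), and 15 of 15 had a log2 fold change above 0 with iron in both mouse groups. The median of all genes tested was -0.014 in healthy and 0.013 in leukemic mice. B cell markers summed to 2312, 2183, 1294 and 2238, above the macrophage markers in each of these libraries, so the label of macrophages covers mixed RNA. T cell markers summed to 81.8, 65.6, 62.5 and 78.0. The part of these other cells in the levels of the erythroid genes was not tested.

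**Figure D5:**
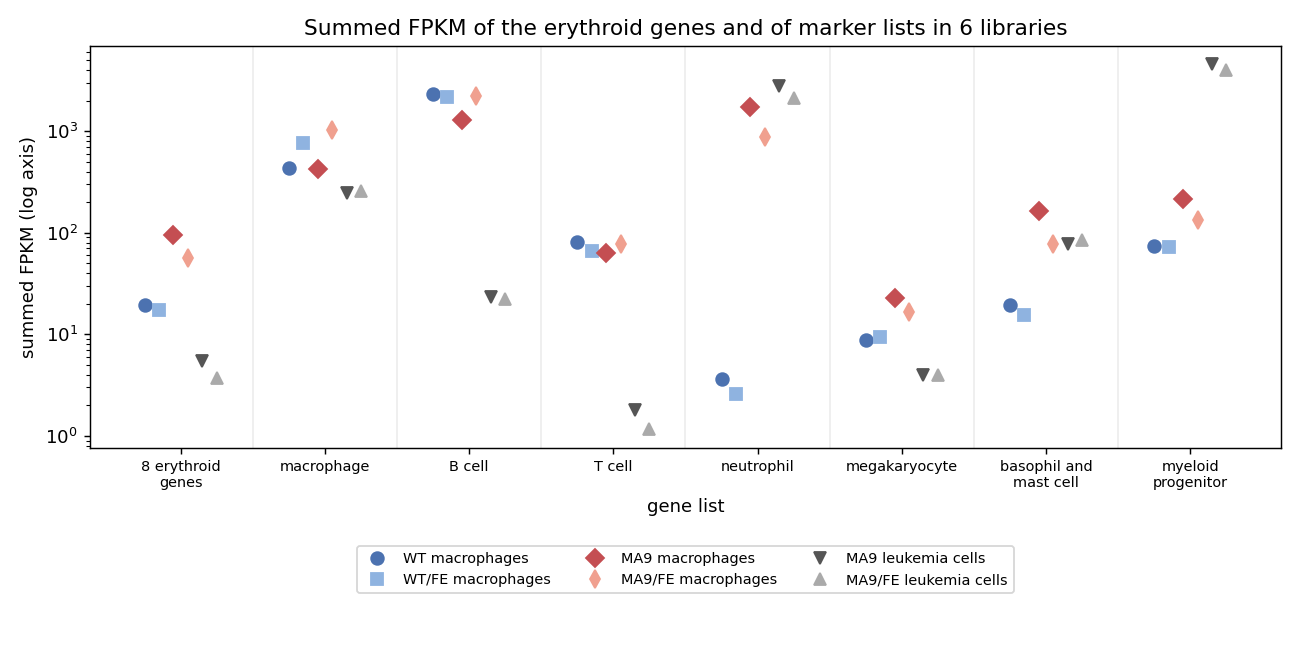
Summed FPKM on a log axis of the 8 erythroid genes and of 7 lists of marker genes in the 6 libraries. The erythroid genes, the megakaryocyte list and the basophil and mast cell list are highest in MA9 macrophages, whereas B cell markers exceed macrophage markers in each macrophage library.

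Across the 6 libraries the profiles of the 8 genes were close to each other, with a Pearson r of log2(FPKM + 1) between 0.82 (Epor and Epb42) and 0.995 (Tal1 and Ermap). These r describe 6 libraries that include both cell types and carry no test. Among 11161 genes with at least 100 reads in their highest library, the mean profile of the 8 genes was most like those of Tspo2 (r = 0.997), Kel (0.996), Aqp1 (0.995), Slc38a5 (0.993) and Tox (0.992), and 304 genes had an r of 0.9 or more. The closest genes to single members were Mycn and Prss50 for Gata1, Sdsl and Aqp1 for Klf1, Slc38a5 and Smo for Tal1, and Sdc1 and Lrrn3 for Epor. For the membrane genes they were Akt2 and Dmtn for Slc4a1, Reln and Ces2g for Ermap, Xbp1 and Btnl10 for Epb42, and Aldh1a1 and Tmem214 for Rhag. The r takes no account of the size of a change. Over the 6 libraries Akt2 ran only from 15.9 to 18.3 FPKM and Tmem214 from 7.89 to 12.7, whereas Slc4a1 ran from 1.35 to 13.5.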

How the data were processed

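The authors deposited FPKM per gene for each of the 6 libraries, per the file headers. The submitters' processing notes name Bowtie2 2.2.5 and RSEM, with their order and settings not given in the sources used here; the study gives an Illumina NovaSeq. Symbols, exon lengths and positions came from GENCODE M21 (GRCm38), which named 54409 of 54532 genes. FPKM multiplied by exon length were whole multiples of 1 step for between 96.8% and 97.0% of values above 0 within 0.05 reads, and the step gave the depth. Reads of all 8 genes were whole.

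Pairs of libraries were scaled by TMM factors coded by hand. Folds were taken on log2(FPKM + 1), with a fold of 2 or more, 10 or more reads in either library, and no test. Intervals are exact Poisson or binomial at 95%. The 2 fits used limma 3.58.1 in R 4.3.3 with Benjamini-Hochberg adjustment over all genes that reached 10 reads in 2 or more libraries. Python 3.11.15 with pandas 2.3.3, numpy 2.4.6 and scipy 1.17.1 was used, and the steps were tested on simulated data.

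Up to 4 genes per list were named, those with the highest FPKM in any library; other list genes were named after their values were seen. The genes and lists were chosen with earlier results of these data known. Alternatives were scaling to the summed FPKM or by the median of ratios, other pseudocounts and minimum reads, removal of the exon length trend, and leaving out a pair.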

Additional observations from a re-analysis of the deposited data

Results flagged for a closer look

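Slc4a1 lay on opposite sides of no change when iron was given to different mice. The ratio of scaled FPKM was 1.76 in WT/FE against WT macrophages, 0.886 in MA9/FE against MA9 macrophages and 0.494 in MA9/FE against MA9 leukemia cells. The counting intervals of the 3 ratios did not cover 1, but the difference between them was not tested, and each rests on 1 library per condition.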

How the results depend on the processing

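Of 58 alternative values for the counts of erythroid genes past the fold or past the adjusted p, 55 stayed within 1.5 times and 3 moved. Those that stayed include counts of 0 that remained 0, so their number is no measure of stability. Scaling to the summed FPKM gave 3 genes for MA9/FE against WT/FE macrophages (6 with TMM) and 5 for MA9/FE against MA9 macrophages (2 with TMM). The limma leukemia term without a minimum of reads gave 0 genes (7 with it) where 27356 genes were fitted; the cause was not tested. With a pseudocount of 0.1 the same term gave 5. Leaving out each pair in turn gave between 0 and 0 genes for iron over the pairs. Of 327 values of single genes, 284 stayed within their counting interval, 43 moved and 0 genes past the fold changed sign. The 284 include all values under another minimum of reads. These equal the main values by construction, because the minimum only decides which genes are counted. Epor and Rhag, not past the fold, changed sign in WT/FE against WT macrophages. The split of all genes past the fold was 485 higher and 270 lower for MA9/FE against WT/FE macrophages, 171 and 1065 with scaling to the summed FPKM, and 331 and 401 with the exon length trend removed. For MA9/FE against MA9 macrophages it was 197 and 208, then 71 and 744, and 129 and 297. That scaling also took the hemoglobin and heme synthesis genes that rose in MA9/FE against WT/FE macrophages from 6 to 0, and put 5 partners of GATA1, TAL1 and KLF1 and 4 membrane partners past the fold with iron in MA9 macrophages, where TMM put 0. A minimum of 50 reads left 6 of the 8 genes in WT/FE against WT macrophages. Without the block for the pair, the limma fit of iron over the pairs called 0 genes as well, with 39 at an unadjusted p under 0.05; the pairs are by kind of cell and mouse group, not by animal. Depth limits the leukemia cells, where 6 of the 8 genes had at most 30 reads.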
